A study of Mus musculus with 3 samples.

Results

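The chemokine ligand genes are the protein-coding genes of RefSeq on the mouse assembly mm10 whose symbol is Ccl or Cxcl with a number and at most 1 letter, together with Cx3cl1 and Xcl1. They numbered 39 of 21900 protein-coding genes. FOXF1 binding near them was read from chromatin immunoprecipitation and sequencing (ChIP-seq) of whole C57BL/6 mouse lungs taken at embryonic day 18.5, late in gestation. There was 1 group, lungs with no stated genetic change or treatment precipitated with an antibody to FOXF1, and each of its 2 biological replicates pooled 3 lungs. Input DNA of the same strain, tissue and stage entered only as the control of the authors' peak calls, so no comparison of genotypes or treatments was possible. The lists held no expression values, and the cell types of the lungs could not be checked from them.

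The authors listed 107388 peak summits in replicate 1 and 61178 in replicate 2. Each summit is a single base with a score, the −log10 of its significance against the input; whether of a p or a q value is not stated. None of the sources used here gives the read depth. Summits of the 2 replicates that were each other's nearest and at most 100 bp apart made up a shared site, placed midway between them. It belonged to a gene when it lay inside the gene, or within 100 kb of it with an end of that gene as the nearest protein-coding gene end. There were 51013 shared sites. The score rises with depth, so it served to rank sites within a replicate, given as the percentage of all shared sites with a lower score there. Where a site has a pair of scores, that of replicate 1 is given before that of replicate 2. In whole lung, binding in few cells and weak binding in many cannot be told apart.

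Chemokines are small secreted proteins that direct the movement of cells, above all leukocytes, by binding G protein-coupled receptors on them. The families CC, CXC, CX3C and XC are named after the spacing of conserved cysteines near the amino terminus. Some ligands are made by stromal, endothelial or epithelial cells at rest, and others are switched on in inflammation. In the lung they bring in neutrophils, monocytes and lymphocytes. FOXF1 is a forkhead transcription factor of the lung mesenchyme and of pulmonary endothelium.

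FOXF1 sites were found at a share of chemokine ligand genes near that of protein-coding genes in general. Most lay outside the gene with middle or low scores, and the share of all shared sites lying outside genes was not counted. Of the 39 genes, 38 could be placed on a chromosome and 20 of them (52.6%) had at least 1 shared site, against 61.0% of the 21779 placed protein-coding genes. The 38 genes held 36 shared sites, a mean of 0.947 and a median of 1 per gene, against a mean of 2.20 and a median of 1 over all protein-coding genes. The remaining gene, the lymphoid chemokine gene Ccl21c, has a RefSeq position taken to lie on a scaffold and was not analysed here. The CXC ligand gene Cxcl17 had the most sites, 5, followed by the XC ligand gene Xcl1 with 4. The highest score of the family was at the CXC ligand gene Cxcl3 in replicate 1 and at the CC ligand gene Ccl22 in replicate 2.

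**Figure D1:**
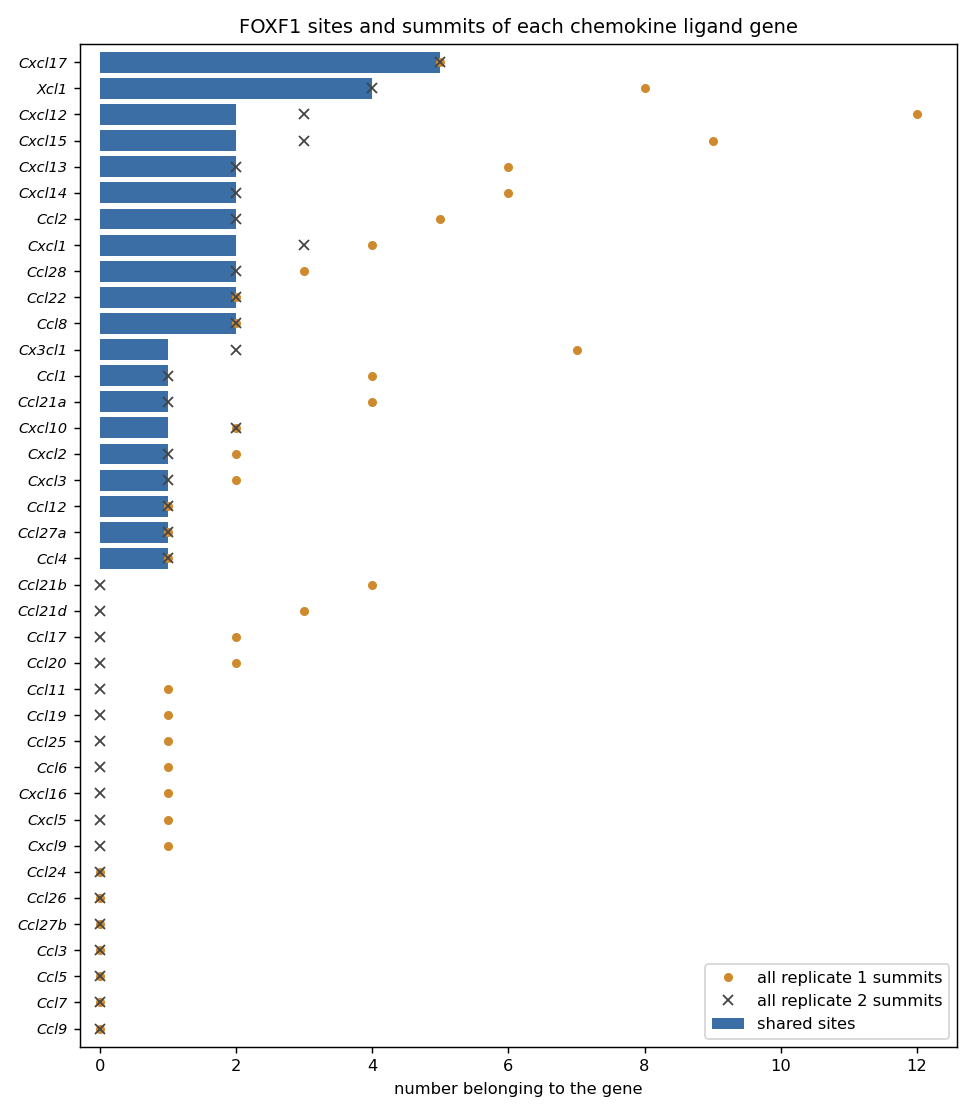
Number of shared sites (bars), of all replicate 1 summits (dots) and of all replicate 2 summits (crosses) belonging to each of the 38 placed chemokine ligand genes. Bars end at 5 for Cxcl17 and 4 for Xcl1, 18 genes have no bar, and the dots run up to 12 at Cxcl12.

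In 4 promoter windows of these genes there was a summit of each replicate, and their sequences are shown for that reason. RefSeq windows from 250 bases before to 50 bases after a start of transcription were at hand for 28 of the 38 genes, 34 windows in all. Those of Cxcl15, Cxcl1, Cxcl12 and Ccl25 had summits of both. The share of all protein-coding windows with summits of both was not counted, so no reading of this count is made. Below are the 250 bases before the start, 5′ to 3′, all on the plus strand of GRCm38.p6, the assembly also called mm10: chr5:90794284-90794533 for Cxcl15, chr5:90890995-90891244 for Cxcl1, chr6:117168285-117168534 for Cxcl12 and chr8:4324960-4325209 for Ccl25. Capitals mark a match to TATTTAC, a forkhead-type motif.
Cxcl15: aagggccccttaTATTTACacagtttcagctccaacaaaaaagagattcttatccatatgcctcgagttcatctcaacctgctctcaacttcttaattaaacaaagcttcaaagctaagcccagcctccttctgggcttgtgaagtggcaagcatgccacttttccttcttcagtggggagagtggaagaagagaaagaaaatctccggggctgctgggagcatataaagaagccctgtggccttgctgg
Cxcl1: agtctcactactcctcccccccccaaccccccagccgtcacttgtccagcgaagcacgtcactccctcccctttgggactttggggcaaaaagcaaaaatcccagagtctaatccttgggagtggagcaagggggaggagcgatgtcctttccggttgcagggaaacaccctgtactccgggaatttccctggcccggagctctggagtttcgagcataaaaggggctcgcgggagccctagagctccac
Cxcl12: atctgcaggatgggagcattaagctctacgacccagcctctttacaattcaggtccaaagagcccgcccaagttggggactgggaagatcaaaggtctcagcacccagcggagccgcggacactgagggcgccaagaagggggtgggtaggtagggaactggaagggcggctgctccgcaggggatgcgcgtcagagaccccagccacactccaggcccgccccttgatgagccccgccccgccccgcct
Ccl25: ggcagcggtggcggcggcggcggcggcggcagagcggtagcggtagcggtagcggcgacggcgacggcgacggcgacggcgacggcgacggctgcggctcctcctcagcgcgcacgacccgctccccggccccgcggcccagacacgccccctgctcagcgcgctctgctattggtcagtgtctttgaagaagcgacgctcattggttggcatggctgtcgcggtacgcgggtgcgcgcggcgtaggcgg

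Each window was chosen for holding summits of both replicates, so summits near a start follow from that choice. The summits lay 6 and 35 bases after the start of Cxcl15 and 22 and 41 bases after that of Cxcl12. In both replicates they lay 154 bases before that of Ccl25. At Cxcl1 they lay 205 bases before and 6 bases after the start, 211 bp apart, and so did not form a shared site. Forkhead-type motifs were searched on both strands. The motif TGTTTAC, with GTAAACA as its reverse complement, had no match in the 34 chemokine windows, against 3.01% of the 21263 windows of placed protein-coding genes. The motif TATTTAC, with GTAAATA as its reverse complement, had a match in 2 of the 34, against 2.59% of all. These were the window of Cxcl15, where its first base lay 238 bases before the start, and that of the macrophage chemokine gene Ccl9, which had no shared site. A match describes the letters alone. The GC content of the printed bases was 46.4% for Cxcl15, 59.2% for Cxcl1, 64.4% for Cxcl12 and 74.8% for Ccl25.

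The CXC genes that attract neutrophils included Cxcl3, whose site was the highest of the family in replicate 1 and the next after that of Ccl22 in replicate 2. Cxcl1, Cxcl2, Cxcl3, Cxcl5 and Cxcl15 lie within 147 kb on chromosome 5, from position 90759298 to 90905938, and 4 of these 5 genes had a site, 6 sites in all. The span held 7 shared sites, 4.77 per 100 kb, of which 1 belonged to Pf4, the platelet chemokine gene between Cxcl5 and Cxcl3. Of all protein-coding genes, 61.0% had a site. Taken with 100 kb on either side, they had a median of 2.48 shared sites per 100 kb. The site of Cxcl3 at position 90780451, 5650 bp before its start, had scores of 118.8 in replicate 1 and 55.3 in replicate 2. It was the only site of a chemokine ligand gene among the highest 10% of all shared sites, with 90.1% of them lower on the mean of both scores. A site of that rank belonged to 12.4% of protein-coding genes. Its summits lay 71 bp apart, the widest gap among the 36 sites, and it was lost when summits had to lie within 50 bp.

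Cxcl15 encodes lungkine, a neutrophil chemokine of mouse airway epithelium, and its site at position 90794554 was the nearest to any start of the family. It lay 20 bp inside the gene, at the promoter printed above, with scores of 37.5 and 22.9. It ranked above 40.4% of shared sites in replicate 1 and above 57.2% in replicate 2. A further Cxcl15 site lay 29501 bp to the right of the gene at 90832568, with 36.0 and 15.9.

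The neutrophil chemokine genes Cxcl1 and Cxcl2 had sites of low rank, all before their starts. Those of Cxcl1 were 6217 bp before the start, with scores of 25.9 and 10.5, and 25611 bp before it, with 16.2 and 8.36. The Cxcl2 site was 3575 bp before the start, with 22.7 and 9.39. Cxcl5, which also attracts neutrophils, had no shared site. The nearest lay 10791 bp from it at 90772416, with 62.0 and 17.6, and belonged to Pf4, from which it was 19 bp away.

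**Figure D2:**
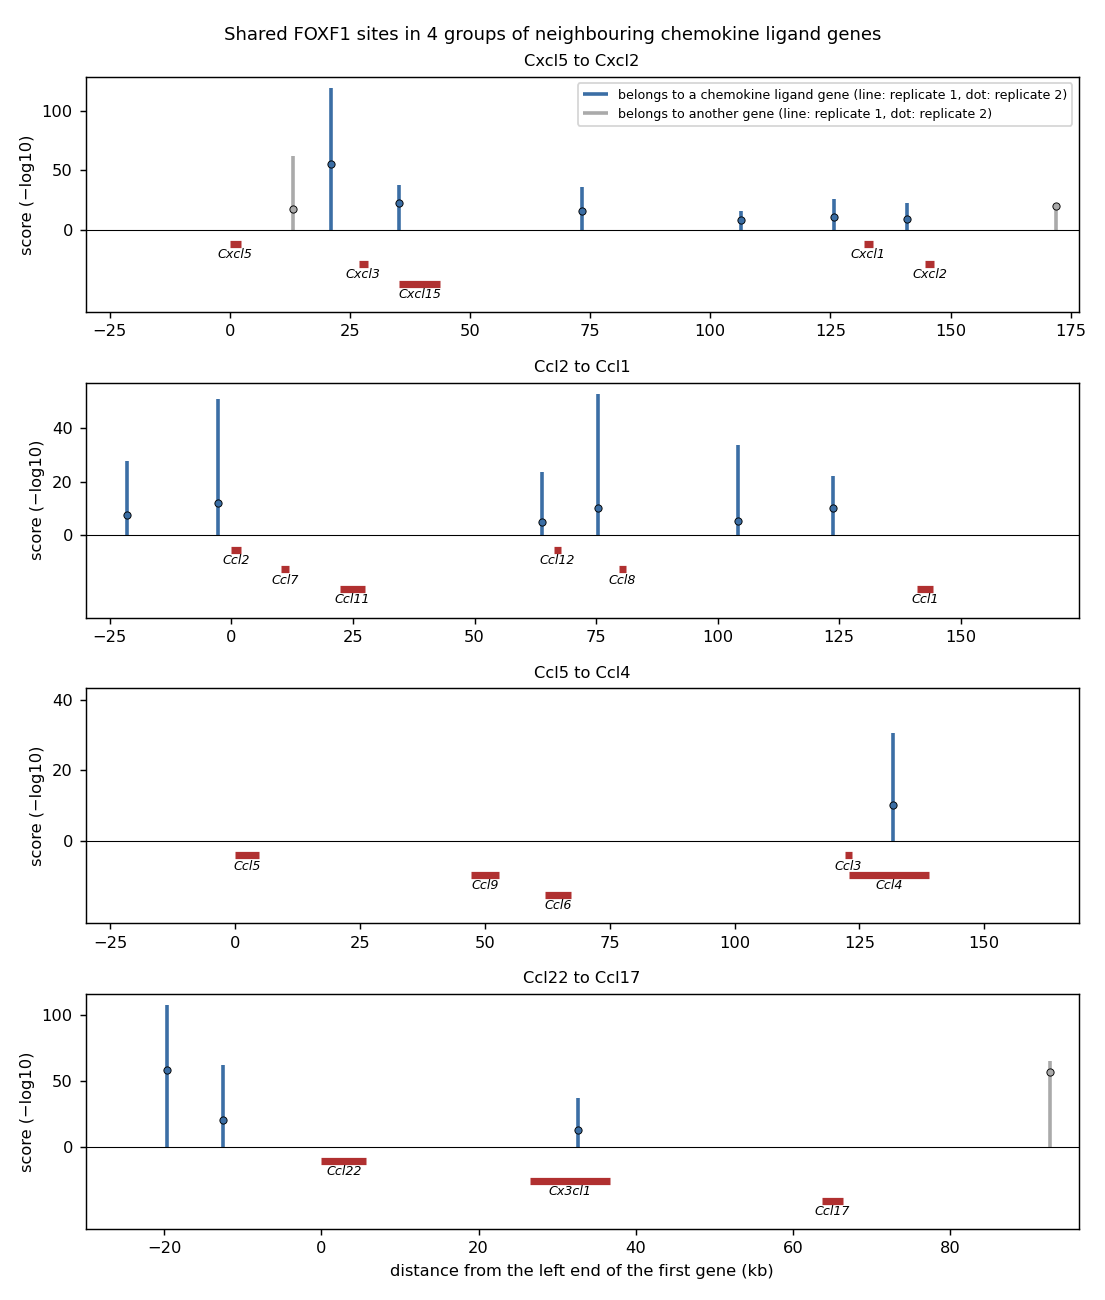
Shared sites in 4 groups of neighbouring chemokine ligand genes, by distance from the left end of the first gene (kb); lines give the replicate 1 score and dots the replicate 2 score (both −log10), coloured by whether the site belongs to a chemokine ligand gene, and red bars are the genes. The site of Cxcl3 reaches 118.8, the Ccl5 to Ccl4 group has 1 site, and the dots of the Ccl2 to Ccl1 group lie between 5.10 and 12.1.

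Of the interferon-induced ligands, which attract activated T cells through Cxcr3, Cxcl10 had 1 site and Cxcl9 none. The Cxcl10 site at chromosome 5 position 92349401 lay 512 bp before the start, with scores of 38.7 and 18.0. It also lies inside Art3, a gene whose span contains the whole of Cxcl10, and belonged to both. Replicate 2 had a further summit 97 bp outside Cxcl10 at 92348986, with a score of 21.9, which had no partner within 100 bp. Cxcl9 had 8 shared sites within 100 kb of it, the nearest 4480 bp away, and all had another gene's end nearer. Art3 held 3 of them.

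All 3 CXC ligands of stromal cells had 2 sites each, mostly far from the gene. Of all protein-coding genes 61.0% had a site, and the mean was 2.20 sites per gene. Cxcl12 attracts cells bearing Cxcr4 and has a part in the growth of vessels and in homing of blood progenitors. Its higher site lay 19740 bp to the right of the gene, beyond its 3′ end, at chromosome 6 position 117201108, with scores of 56.9 and 22.9. The site at its start, 31 bp inside the gene at 117168566, had 14.1 and 7.78 and ranked above 4.51% of shared sites in replicate 1 and 11.6% in replicate 2. Cxcl12 had 12 summits of replicate 1, the most of the family, and 3 of replicate 2. With 100 kb on either side it had a density of 0.940 shared sites per 100 kb, higher than 24.7% of protein-coding genes.

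Cxcl13, which guides B cells into lymphoid follicles, had a site 49049 bp to the right of the gene at chromosome 5 position 96010117, with scores of 64.6 and 18.4, and a lower one 6911 bp before its start, with 23.0 and 10.2. Cxcl14, a chemokine of epithelium and fibroblasts, had its sites 43916 and 54816 bp outside the gene on chromosome 13. They scored 32.2 and 10.2, and 30.1 and 9.999. Every site of these genes other than the start site of Cxcl12 lay outside the gene.

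Cxcl17, a chemokine of mucosal epithelium that is made in airways, had more sites than any other chemokine ligand gene. Its 5 sites lie on chromosome 7 to the right of the gene, which spans 25400053 to 25412886, and fall into a near and a far group. The near sites were 301 bp from the gene at 25413187, with scores of 87.0 and 32.9, and 944 bp from it, with 22.2 and 8.36. The far ones lay 20397 to 23564 bp from the gene. The highest of these, at 25436450, had 80.3 and 39.99 and ranked above 78.1% of shared sites in replicate 1 and 78.0% in replicate 2. The remaining far sites scored 57.9 and 25.002, and 35.7 and 10.2. Each of its 5 summits in either list had a partner in the other.

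The ligands with a membrane-spanning stalk differed in whether a site was assigned. Cx3cl1, fractalkine, which holds monocytes and other Cx3cr1-bearing cells on endothelium and epithelium, had 1 site inside the gene at chromosome 8 position 94778296, 6116 bp after its start. Its summits fell on the same base in both replicates, with scores of 36.6 and 12.7. Replicate 2 had a higher summit inside the gene at 94778692, with a score of 19.1, which had no partner within 100 bp. A summit 16 bp after its start, with a score of 14.1, was found in replicate 1 alone. Cxcl16, the ligand of Cxcr6, had no shared site of its own among 8 within 100 kb. The nearest lay 2423 bp away, with 38.2 and 30.2, and belonged to Med11.

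Among CC ligands of lymphoid organs, which draw T cells and dendritic cells through Ccr7, 1 of 4 placed genes had a site. The share over all protein-coding genes was 61.0%. The site belonged to Ccl21a, 28923 bp before its start on chromosome 4, with scores of 21.4 and 7.78. Ccl19, Ccl21b and Ccl21d had none. Ccl21a, Ccl21b, Ccl21c and Ccl21d are near-identical copies, as are Ccl27a and Ccl27b. Between Ccl27a and Ccl27b on chromosome 4, over 876 kb, there were 22 summits of replicate 1, with a highest score of 20.7, and 0 of replicate 2. No source used here says how reads matching several copies were treated, and its part in this was not tested.

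Of 5 CC ligand genes of skin and mucosal epithelium, 2 had a site, against 61.0% of all protein-coding genes. Ccl28, which brings IgA-forming cells to mucosae, had a site inside the gene on chromosome 13 at 119641808, with scores of 39.9 and 10.8, and another 7680 bp outside it, with 8.28 and 4.32, the lowest of the family. Ccl27a, a skin chemokine, had a site 525 bp inside its right end, with 13.2 and 7.07. Ccl20, the ligand of Ccr6, had none, and its nearest shared site was 61526 bp away. Ccl25, which draws T cells to thymus and gut through Ccr9, had none by the nearest-end rule. The site in its promoter window, at chromosome 8 position 4325056 with 46.0 and 38.2, lay 149 bp outside the gene and belonged to Elavl1, the gene of an RNA-binding protein, whose end is nearer.

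The ligands Ccl22 and Ccl17, which attract T cells bearing Ccr4, lie on either side of Cx3cl1 on chromosome 8. Ccl22 had a site 19634 bp before its start at 94726050, with scores of 107.1 and 58.3, above 87.6% of shared sites in replicate 1 and 89.8% in replicate 2. Its other site was 12462 bp before the start, with 62.0 and 20.6. Ccl17 had none, although 12 shared sites lay within 100 kb of it, of which 2 belonged to Ccl22 and 1 to Cx3cl1. The windows around Ccl22, Cx3cl1 and Ccl17 held 6.32, 7.13 and 5.92 shared sites per 100 kb, higher than 87.9% to 93.8% of protein-coding genes. The 3 genes span 66.4 kb, so their windows overlap and count some sites more than once.

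The CC genes that attract monocytes and eosinophils had sites at 3 of 7 members, against 61.0% of all protein-coding genes. All 3 lie in a group on chromosome 11. This group runs from Ccl2 to Ccl1, which draws T cells through Ccr8, between 82035577 and 82179812. Ccl2, the main monocyte chemokine, had a site 2703 bp to the left of the gene, with scores of 50.8 and 12.1, and one 21384 bp to its left, with 27.9 and 7.78. Ccl8, a relative of Ccl2, had a site 4239 bp before its start at 82110946, with 52.8 and 10.2, and one 22899 bp to its right, with 34.0 and 5.60. Each site of these genes lay outside the gene. Ccl12 had a site 2291 bp before its start, with 23.8 and 5.10, and Ccl1 had one 17388 bp to its left, with 22.2 and 10.2. Ccl7, another monocyte chemokine, and Ccl11, which encodes eotaxin, lie between Ccl2 and Ccl12 and had no shared site.

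The sites of this group stood lower in the ranks of replicate 2 than of replicate 1 in 5 of 6 cases. The higher Ccl8 site was above 58.9% of shared sites in replicate 1 and above 21.9% in replicate 2, and the higher Ccl2 site above 57.0% and 29.7%. The more distant Ccl8 site was above 34.8% and 3.22%. Over all 36 sites of chemokine ligand genes, 22 ranked lower in replicate 2, and over all shared sites 56.0% did. With 2 replicates of 1 group, this difference was not tested.

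**Figure D3:**
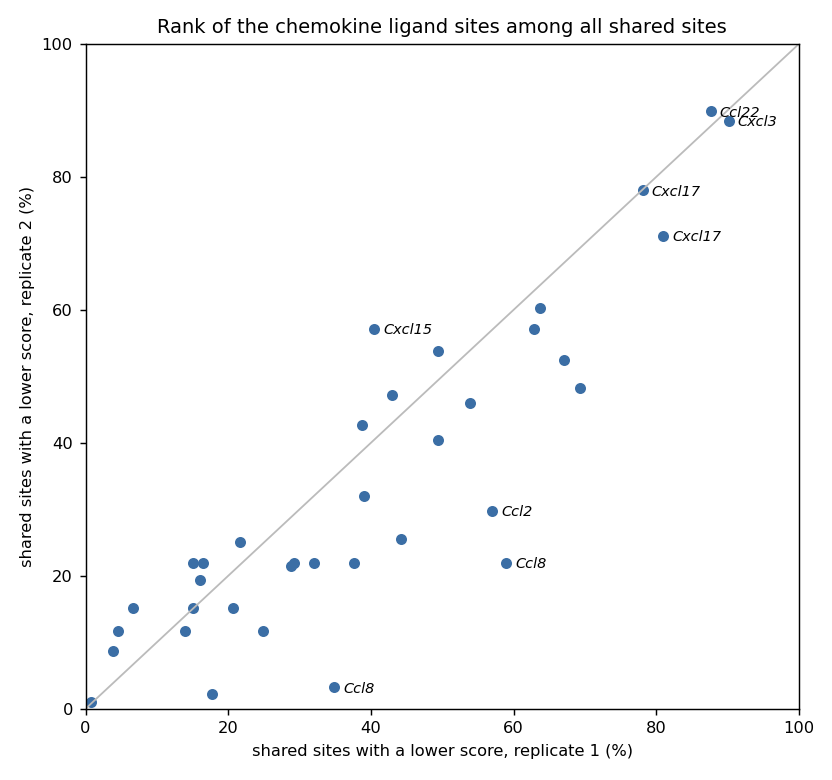
Rank of each of the 36 shared sites of chemokine ligand genes among all shared sites, as the percentage of sites with a lower score in replicate 1 (x axis) and replicate 2 (y axis); the grey line marks equal rank. Sites of Cxcl3, Ccl22 and Cxcl17 lie at the upper right, and both Ccl8 sites and the higher Ccl2 site lie farthest below the line.

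The eosinophil chemokine genes Ccl24 and Ccl26 had no site amid a dense neighbourhood. They lie on chromosome 5 between 135560448 and 135573123, and 15 and 16 shared sites were within 100 kb of them. Of these, 13 and 14 belonged to Hip1, a gene of clathrin-dependent endocytosis, and 2 to Rhbdd2. The window densities of 7.38 and 7.88 per 100 kb exceeded those of 94.7% and 96.1% of protein-coding genes. These 2 windows overlap over most of their length and so count largely the same sites. Neither gene had a summit of either replicate assigned to it.

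The macrophage inflammatory CC genes had a single site among 5 members, while 61.0% of all protein-coding genes had a site. Ccl5, Ccl9, Ccl6, Ccl3 and Ccl4 span 139 kb on chromosome 11, from 83525778 to 83664683. This span held 1 shared site, 0.720 per 100 kb, with 2 summits of replicate 1 and 1 of replicate 2. Taken with 100 kb on either side, protein-coding genes had a median of 2.48 shared sites per 100 kb. The site at 83657403, with scores of 30.5 and 10.2, lay inside the RefSeq span of Ccl4. That span is 16060 bp long and overlaps Ccl3. The nearest shared site was 52649 bp from Ccl5, 78767 bp from Ccl9, 64316 bp from Ccl6 and 8025 bp from Ccl3.

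Xcl1, lymphotactin, the ligand of Xcr1 on cross-presenting dendritic cells, had 4 sites, all more than 30 kb from the gene on chromosome 1. They were 32391 and 42236 bp to its left, with scores of 44.1 and 21.4 and of 44.1 and 15.5, and 62157 and 78104 bp to its right, with 25.4 and 8.36 and of 47.9 and 17.6. None lay inside another protein-coding gene. With the ends of all RefSeq genes competing, noncoding ones included, none of the 4 belonged to Xcl1. The most distant, at 165013626, was also the farthest of the family; the first beyond the limit of 100 kb was 185483 bp from Cxcl12, with 34.0 and 10.2.

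Across the family, sites lay mostly outside the genes. Inside the gene were 6 of the 36 sites, in Cxcl12, Cxcl15, Cx3cl1, Ccl4, Ccl27a and Ccl28. By gene, 6 of 38 had a site inside, against 48.3% of all protein-coding genes. The share of all shared sites that lie inside genes was not counted. A further 7 lay within 5 kb outside, so that 12 of 38 genes had a site inside or within 5 kb, against 56.1% of all protein-coding genes. The other 23 sites were farther away, and the 30 outside sites had a median distance of 20068.5 bp. Chemokine ligand genes are short, with a median length of 4004.5 bp against 17217 bp for all protein-coding genes, which bears on how many sites can lie inside them.

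The counts were therefore also read by gene length. Among genes of up to 2 kb, 6 of 10 chemokine ligand genes had a site, against 17.1% of all 2557 such protein-coding genes. Among those of 2 to 5 kb it was 6 of 12 against 45.7%, and among those of 5 to 10 kb 3 of 9 against 53.0%. All 4 of 10 to 20 kb had a site, Cxcl12, Cxcl17, Cx3cl1 and Ccl4, against 63.2%. The order relative to other genes thus differed between length classes, with few genes in each and no test made. The stretch a gene could claim by the nearest-end rule differed too. Its median over all genes of these 4 classes was 23.6, 19.5, 21.8 and 30.6 kb, in order of length. The chemokine ligand genes could claim more, except Cxcl3 and Ccl7, Ccl26 and Ccl27a, and Cxcl9 and Cxcl16 in the first 3 classes. The part of this in the counts was not tested.

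**Figure D4:**
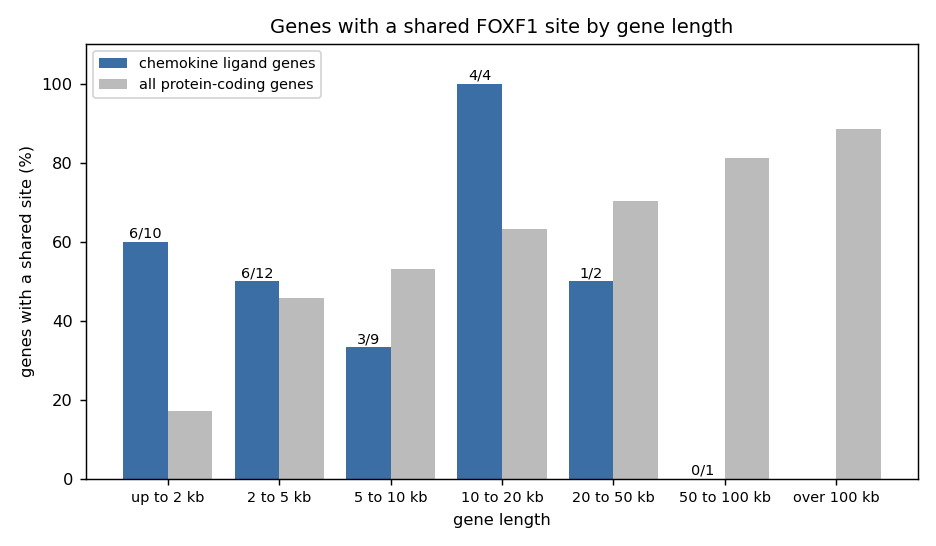
Percentage of genes with a shared site by gene length, for chemokine ligand genes (blue, with counts above the bars) and for all protein-coding genes (grey). The grey bars climb from 17.1% to 88.4% with length, while the blue ones stand above grey up to 5 kb and at 10 to 20 kb, and below it in the other classes that hold chemokine ligand genes.

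Counted without regard to which gene a site belonged to, densities around these genes were close to those around others. The window of 100 kb on either side held a median of 2.46 shared sites per 100 kb for chemokine ligand genes and of 2.48 for all protein-coding genes. Windows of neighbouring genes overlap, so some sites count for several genes. Of the 18 genes without a site, 15 had a site of another gene within 100 kb, and the exceptions were Ccl21b, Ccl21d and Ccl27b on chromosome 4. The matching share among all genes without a site was not counted. Any shared site within 100 kb was found for 35 chemokine ligand genes, against 85.0% of all protein-coding genes. Counted over the stretch that each gene could claim by the nearest-end rule, the family had 1.77 sites per 100 kb and all protein-coding genes 2.41. The claimable stretch had a median of 37.7 kb for chemokine ligand genes and of 49.5 kb for all.

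Most sites of the family scored below the median shared site. Their mean score of both replicates ran from 6.30 to 87.0 with a median of 23.8, against a median of 32.0 over all shared sites. Above that median were 10 of the 36 sites, and the highest 4 belonged to Cxcl3, Ccl22 and Cxcl17. Genes with 4 or more sites were Cxcl17 and Xcl1 alone, 2 of 38, against 17.4% of all protein-coding genes.

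Many summits near these genes were listed in replicate 1 only. Replicate 1 had 104 summits belonging to 31 of the genes and replicate 2 had 41 belonging to 20, while a summit belonged to 72.7% and 65.6% of all protein-coding genes. The 20 genes with a replicate 2 summit were the 20 with a shared site. Unpaired were 68 of the replicate 1 summits, with a median score of 11.4 and a highest of 34.8 at Cxcl12, and 5 of the replicate 2 summits. So 36 of 104 and 36 of 41 summits were paired here. Over the whole lists, mitochondrial summits aside, 51013 of 107378 in replicate 1 and 51013 of 61172 in replicate 2 were paired. That Cxcl12 summit, 86822 bp outside the gene, had a replicate 2 summit 124 bp away, just over the limit of 100 bp. Of the 18 genes without a shared site, 11 had a summit in replicate 1 and 7 had none in either: Ccl3, Ccl5, Ccl7, Ccl9, Ccl24, Ccl26 and Ccl27b.

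Receptors of the family and other genes of leukocyte traffic give a scale for these values. A shared site belonged to 10 of 19 signalling chemokine receptor and Ccrl2 genes, with a mean of 1.58 sites per gene, against the 20 of 38 ligand genes and their mean of 0.947. Over all protein-coding genes, beside which each list here is to be read, it was 61.0%, with a mean of 2.20. The highest receptor sites were at Ccrl2, a receptor-like protein that binds chemerin, with scores of 126.7 and 56.4, and at the neutrophil receptor gene Cxcr1, with 105.5 and 45.6. Cxcr4, the receptor of Cxcl12, had 7 sites and was picked after its values were seen, as was Ackr3, one of the atypical receptors, which take up chemokines without G protein signalling. Of the 4 atypical receptor genes 3 had a site, with 8 at Ackr3, 7 at Ackr2, 3 at Ackr4 and 0 at Ackr1. The highest of these, inside Ackr4, had 289.9 and 178.3, above 99.97% of shared sites. Of 12 genes of leukocyte adhesion, 6 had sites, with the highest inside Selp, the gene of P-selectin, at 154.0 and 74.0, and near Vcam1, at 139.9 and 60.3. In replicate 1 the highest ligand site, that of Cxcl3 at 118.8, scored below the highest of each of these 3 lists. In replicate 2 the highest, that of Ccl22 at 58.3, scored above the highest receptor site and below those of the other lists. No test was made between the lists.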

How the data were processed

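FOXF1 binding was measured by ChIP-seq in whole lungs of C57BL/6 mice at embryonic day 18.5, with 3 lungs pooled in each of 2 replicates. Per the labels' protocols, fixation used 1% formaldehyde, chromatin was cut with micrococcal nuclease before sonication, and each precipitation took 10 µg of it and 7 µg of antibody. Peaks were called with MACS2 on mm10, per the submitters' processing notes. The deposited score is the authors' −log10 significance at each summit. Aligner, MACS2 options, duplicate handling and depth: not given in the sources used here, so no counting interval could be given.

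Summits were paired and assigned with Python 3.11.15, pandas 2.3.3 and NumPy 2.4.6, and the steps were tested on simulated data. Mitochondrial summits, 10 and 6, were set aside. Genes came from RefSeq on GRCm38.p6, and those listed below 3 Mb, except on the Y chromosome, were taken to lie on unplaced scaffolds. A gene's window is the gene with 100 kb on either side. The genes, lists and windows were chosen with earlier results of these data known, and the forkhead motifs after the sites were seen. Every gene with a shared site is named, with its highest site, and in the comparison lists those with the highest sites. No test was made, since the design has 1 group and genes are not replicates. Alternatives changed the pairing distance, the score, the assignment and the replicates used.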

Additional observations from a re-analysis of the deposited data

How the results depend on the processing

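No paired analysis was possible because both replicates belong to 1 group. The main counts were 20 genes of 38, against 61.0% of all protein-coding genes, 36 sites and a median of 1 site per gene. Pairing within 50 bp left 19 genes, against 57.8% of all, and a median of 0.5, without Cxcl3. A score of at least 10 in both replicates left 16 genes, against 56.6%, and a median of 0, without Ccl12, Ccl21a, Ccl27a and Cxcl2. The 10000 highest summits of each replicate left Cxcl3 and Ccl22, 2 genes against 16.7%, with 2 sites and a median of 0. Within 20 kb there were 17 genes, against 59.0%, 21 sites and a median of 0. Within 5 kb there were 12 genes, against 56.1%, 13 sites and a median of 0. With the ends of all RefSeq genes competing there were 17 genes, against 57.7%, 23 sites and a median of 0. This and the limit of 20 kb each left no site at Xcl1, Cxcl14 and Ccl21a, and at Cxcl13 a highest mean score of 16.6, against 41.5 in the main assignment. Both also lost the highest Cxcl17 site, leaving 59.9 against 60.1, and all far sites of Cxcl17 lay beyond 20 kb. At Cxcl12 the ends of all RefSeq genes left a highest mean score of 10.9, against 39.9, so the site to the right of the gene no longer belonged to it. With starts only there were 19 genes, against 60.5%, and a median of 0.5, with Ccl3 gained and Ccl2 and Cxcl17 lost. No start was at hand for 10 of the 38 genes, these 2 among them. Starts were at hand for 17492 of the 21779 placed protein-coding genes. Without sites inside other genes there were 19, against 59.4%, and a median of 0.5, Cxcl10 being lost. Taking every site within 100 kb gave 35 genes, against 85.0%, 113 sites and a median of 5. Leaving out a replicate gave 20 to 31 genes, against 65.6% and 72.7%, 41 to 104 sites and medians of 1 to 2. The unknown depth limits what the absence of a summit in replicate 2 can show.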

Other observations

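Cxcl11, placed here with the interferon-induced ligands, is listed as a transcribed pseudogene by RefSeq on mm10 and was therefore not among the genes counted. It spans chromosome 5 positions 92359544 to 92363296. The nearest shared site was that of Cxcl10, 10143 bp away. The next, 23630 bp away at 92386926, had scores of 103.5 and 38.7 and belonged to Art3.

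Ppbp, a platelet chemokine gene whose symbol falls outside the naming rule, had no shared site, whereas Pf4, another platelet chemokine gene, had 1, with scores of 62.0 and 17.6.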
